A study of Mus musculus with 6 samples.

Results

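The regions described here are stretches of open chromatin between genes that were less accessible in fibroblasts carrying the FOP mutation than in wild-type fibroblasts. They were chosen as the rows of the authors' list of less accessible regions whose midpoint lay outside the span of every RefSeq protein-coding gene of GRCm38. There were 298 such regions among 556 less accessible regions and among 3521 differential regions of either direction. The regions were thus selected on the authors' measured difference in accessibility between genotypes, for which the submitters' processing notes name DESeq2, and on position. Both direction and position outside genes are therefore a description. Their distances, their flanking genes and the non-coding genes they touched were not part of the selection. Promoter overlap was limited by it, since regions with midpoints inside protein-coding genes were left out.

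Chromatin accessibility was measured by ATAC-seq, in which a transposase inserts sequencing adapters into open DNA, in mouse embryonic fibroblasts (MEFs) from E13.5 embryos. The 3 wild-type libraries were Acvr1+/+ and the 3 mutant libraries Acvr1R206H/+, heterozygous for the activating change in the BMP type I receptor ALK2 that causes fibrodysplasia ossificans progressiva (FOP), in which bone forms in soft tissue. The submitters call them biological replicates without saying whether each stands for its own embryo, and MEF cultures are mixed cells of the embryo body. The deposited lists give positions and a direction but no value per library, so the spread among libraries cannot be given, depth is unknown, and fibroblast markers could not be checked.

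Open chromatin between genes consists mostly of enhancers and other distal elements, which transcription factors bind and which act on promoters that may lie far away in the same neighbourhood. The nearest gene is therefore a convenient label for such an element and not evidence of its target. Accessibility at a distal element is usually more specific to a cell state than accessibility at a promoter.

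Of the 298 regions, 6 overlapped the promoter window of an annotated gene, taken from 250 bases before to 50 bases after a transcription start, and 1 window of each is shown because it ties an intergenic region to a start site. Only 1 belonged to a protein-coding gene, Nppb, which encodes the natriuretic peptide BNP. Its region (chromosome 4, 147985263 to 147985997) covered all 250 bases before the start at 147985900. The gene span used for distances begins earlier, at 147985786, so the last part of this stretch lies inside that span. The others lay at starts of long non-coding RNA genes, and 1 of them spanned the facing starts of Gm33323 and Gm33398 on chromosome 7. In the sequences below, read 5′ to 3′ on the strand of the gene from the RefSeq tables of GRCm38.p6, capitals mark matches to GGAATG or its reverse complement CATTCC (the letters bound by TEAD factors), TGANTCA (AP-1) and TATAAA (the TATA box).
Nppb, chr4:147985650-147985899, plus strand: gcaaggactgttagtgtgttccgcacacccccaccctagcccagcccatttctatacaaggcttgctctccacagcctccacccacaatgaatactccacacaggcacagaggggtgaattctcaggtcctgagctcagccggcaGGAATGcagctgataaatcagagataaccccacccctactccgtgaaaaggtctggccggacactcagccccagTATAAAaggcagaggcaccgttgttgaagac
Gm13816, chr2:92751232-92751531, plus strand: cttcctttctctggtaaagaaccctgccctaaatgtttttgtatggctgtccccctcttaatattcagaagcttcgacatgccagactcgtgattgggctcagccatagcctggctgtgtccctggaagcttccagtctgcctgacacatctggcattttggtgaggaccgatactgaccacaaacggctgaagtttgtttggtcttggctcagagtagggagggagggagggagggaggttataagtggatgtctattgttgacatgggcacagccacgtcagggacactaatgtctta
Gm33741, chr6:100509980-100510279, minus strand: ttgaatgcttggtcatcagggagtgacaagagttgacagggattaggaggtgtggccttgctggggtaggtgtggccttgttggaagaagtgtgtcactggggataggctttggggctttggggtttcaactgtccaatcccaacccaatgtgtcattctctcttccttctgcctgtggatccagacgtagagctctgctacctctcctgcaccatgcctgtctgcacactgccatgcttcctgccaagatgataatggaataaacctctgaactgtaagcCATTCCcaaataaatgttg
Gm33323, chr7:129764377-129764676, plus strand: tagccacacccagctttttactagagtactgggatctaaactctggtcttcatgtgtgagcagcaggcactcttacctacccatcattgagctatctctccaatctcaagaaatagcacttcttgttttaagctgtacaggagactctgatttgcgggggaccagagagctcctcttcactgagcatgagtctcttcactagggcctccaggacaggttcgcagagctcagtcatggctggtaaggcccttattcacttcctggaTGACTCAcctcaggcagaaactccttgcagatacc
3100003L05Rik, chr7:124708886-124709185, minus strand: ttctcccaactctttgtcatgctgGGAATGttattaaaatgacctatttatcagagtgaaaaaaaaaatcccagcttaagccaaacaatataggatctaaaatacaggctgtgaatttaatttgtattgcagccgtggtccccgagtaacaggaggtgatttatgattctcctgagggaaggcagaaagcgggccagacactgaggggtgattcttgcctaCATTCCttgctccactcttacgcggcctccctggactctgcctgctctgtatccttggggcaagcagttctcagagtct
Gm39236, chr8:104062240-104062539, plus strand: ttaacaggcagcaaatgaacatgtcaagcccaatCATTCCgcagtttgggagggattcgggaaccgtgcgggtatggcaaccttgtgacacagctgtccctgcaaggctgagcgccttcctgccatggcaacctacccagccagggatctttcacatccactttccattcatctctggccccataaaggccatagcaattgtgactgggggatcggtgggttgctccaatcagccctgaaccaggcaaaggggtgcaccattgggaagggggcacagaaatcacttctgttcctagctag

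The Nppb stretch held TATAAA 31 bases before the start and GGAATG 105 bases before it. The window of Gm13816 held none of the letters searched. In the window of 3100003L05Rik, GGAATG began 226 bases and CATTCC 29 bases before the start. The TGACTCA of Gm33323 lay after its start, in the stretch shared with Gm33398. Among the 7 windows touched by the 6 regions, 4 held GGAATG or CATTCC, against 14.7% of all 32851 windows. TGANTCA was in the facing pair alone, whose windows overlap and share the same bases, so it is 1 match in 1 of the 6 regions, beside 7.81% of all windows. TATAAA or TTTATA was in 1 of the 7 and in 13.6% of all windows. GGCGCC, letters bound by BMP-activated SMADs and identical on both strands, was in none of the 7 and in 11.9% of all windows. No 2 matches overlapped within a window. A match of letters is a description of the sequence only. The 250 bases before these starts held between 1 and 6 CpG dinucleotides, where the median of all windows was 6.

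The rule left out regions centred inside protein-coding genes, in both lists, which limits how many could overlap a promoter. Promoter overlap was rare in both directions of change. It was found for 6 of 285 less accessible regions (2.11%, exact 95% interval 0.776 to 4.53%) and for 16 of 1548 more accessible regions (1.03%, 0.592 to 1.67%). The odds ratio was 2.06 (95% interval 0.65 to 5.60), and the difference did not pass the test (two-sided Fisher exact test, adjusted p = 0.17). Regions on chromosome 18, among them 13 less accessible ones, had no window in the table and were left out. Windows were at hand for 79.9% of protein-coding genes.

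Less accessible intergenic regions lay nearer to protein-coding genes than more accessible ones. Their median distance from midpoint to the nearest gene was 34.2 kb, with quartiles of 9.04 and 111 kb and a range from 0.156 kb to 1676 kb. The 1620 more accessible intergenic regions had a median of 72.6 kb and quartiles of 24.2 and 188 kb. Within 10 kb of a gene lay 84 of 298 less accessible regions (28.2%, exact 95% interval 23.2 to 33.7%) and 205 of 1620 more accessible regions (12.7%, 11.1 to 14.4%), an odds ratio of 2.71 (95% interval 2.0 to 3.66; two-sided Fisher exact test, adjusted p = 8.5e-10). Beyond 100 kb the order was the other way, with 83 less accessible regions (27.9%) and 675 more accessible regions (41.7%), an odds ratio of 0.54 (95% interval 0.41 to 0.71; Fisher exact test, adjusted p = 1.5e-05). All intergenic base pairs, weighted by the chromosomes of the less accessible regions, gave 17.2% within 10 kb, which lay between the shares of the 2 lists. Within 100 kb they gave 54.3%, below the share of both the less accessible (72.1%) and the more accessible regions (58.3%). The Fisher exact tests, 5 in all and adjusted together, count regions, which are not replicates and are not independent where they are neighbours.

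**Figure D1:**
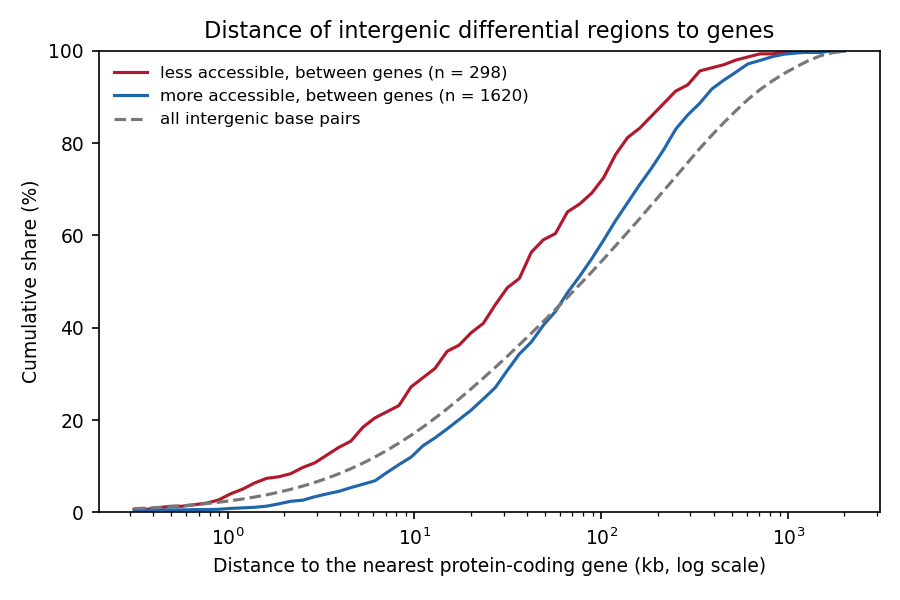
Cumulative share of regions (y axis, percent) by distance from the region midpoint to the nearest protein-coding gene (x axis, kb, log scale) for 298 less accessible and 1620 more accessible intergenic regions, with all intergenic base pairs weighted by the chromosomes of the less accessible regions as a dashed line. At 10 kb the curve of less accessible regions stands at 28.2%, that of more accessible regions at 12.7% and the dashed line at 17.2%.

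The shorter distance went with shorter gaps between the flanking genes. The gap, measured from the end of the gene on the left to the start of the gene on the right, had a median of 142 kb for less accessible and 368 kb for more accessible regions. In gaps of up to 50 kb lay 26.2% of less accessible regions (exact 95% interval 21.3 to 31.6%) and 8.95% of more accessible regions (7.60 to 10.4%), while such gaps hold 14.4% of intergenic base pairs on the chromosomes of the former. In gaps over 1000 kb lay 10.4% of less accessible and 19.6% of more accessible regions, both below the 31.3% of those base pairs. Within the gap the position was similar. The distance to the nearest gene was a median of 25.1% of the gap for less accessible and 24.7% for more accessible regions, and the farther flank was a median of 2.99 and 3.04 times as distant as the nearer one.

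Among regions in gaps of 50 to 1000 kb the share within 10 kb of a gene differed little. In gaps of 50 to 200 kb it was 20 of 94 less accessible regions (21.3%, exact 95% interval 13.51 to 30.9%) and 74 of 371 more accessible regions (19.9%, 16.0 to 24.4%). In gaps of 200 to 1000 kb it was 4 of 95 (4.21%) and 34 of 787 (4.32%). Gaps of up to 50 kb held 60 of the 84 less accessible regions within 10 kb. There the share was higher for less accessible regions, 60 of 78 (76.9%, 66.0 to 85.7%) against 95 of 145 (65.5%, 57.2 to 73.2%). These intervals overlap, which does not show that the shares are equal. In gaps over 1000 kb the share was 0 of 31 and 2 of 317. These classes were set after the gap lengths had been seen, and the differences were not tested.

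**Figure D2:**
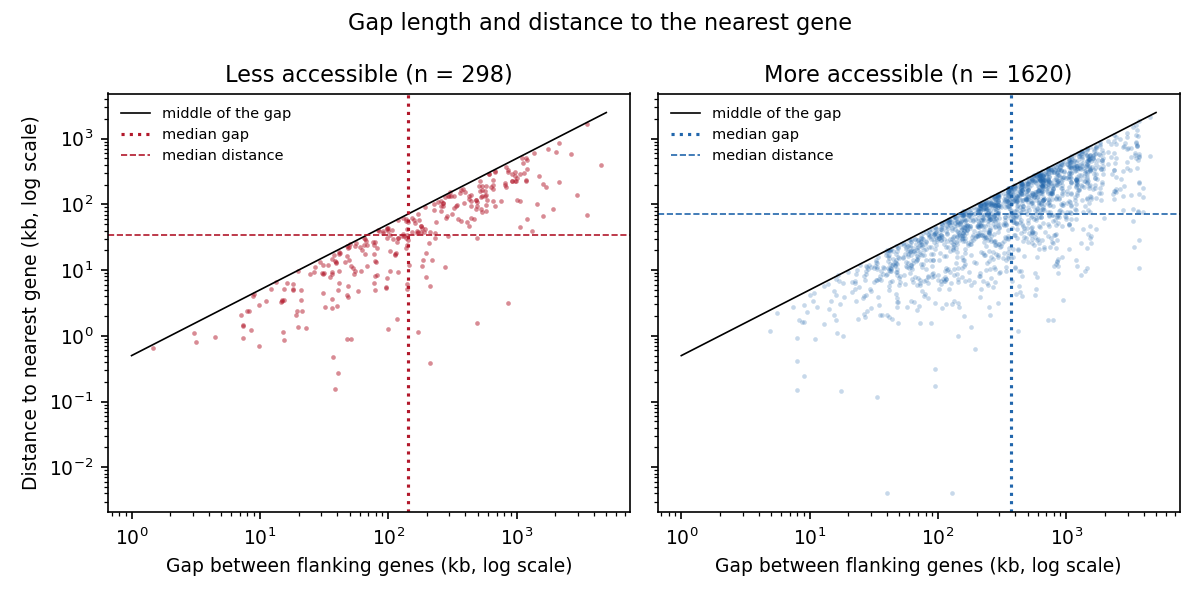
Distance to the nearest protein-coding gene (y axis, kb, log scale) against the length of the gap between the flanking genes (x axis, kb, log scale), 1 point per intergenic region, with less accessible regions on the left and more accessible regions on the right; the solid line marks the middle of a gap, the dotted line the median gap and the dashed line the median distance. Less accessible regions lie more often in short gaps, with a median gap of 142 kb against 368 kb.

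The closest regions adjoined genes of varied function. The midpoint was within 1 kb of a gene for 12 regions (4.03%, exact 95% interval 2.10 to 6.93%), against 14 more accessible regions (0.864%, 0.473 to 1.45%). After Nppb at 156 bp came Krt19, a keratin of simple epithelia and mesothelium, at 273 bp, and Ptgs2, which encodes cyclooxygenase-2, at 385 bp beyond its 3′ end. Others within 1 kb were Spo11, the meiotic nuclease (0.469 kb), Spata24 (0.652 kb), Ankk1 (0.711 kb), Mtch1 (0.795 kb), the potassium channel gene Kcnh1 (0.896 kb), Rrp1 (0.902 kb), Rsad1 (0.924 kb) and Lsm1 (0.947 kb). Just above 1 kb were Plscr2 (1.09 kb), Blcap (1.14 kb) and Plaur, the urokinase receptor gene (1.14 kb upstream of its 5′ end). On the other side of the rule, the less accessible regions just inside a gene had midpoints 32 bp within Tdrd7, 161 bp within Aunip and 165 bp within Klhdc7a. The bodies of 2 intergenic regions reached into a gene although their midpoints did not.

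The farthest regions lay in gene deserts. That near Slc10a2, a bile acid transporter gene, was 1676 kb from it on chromosome 8, in a gap of 3512 kb before Efnb2, the gene of the ligand ephrin-B2. It shared this gap with 5 more accessible regions. Next came regions 875 kb from Cbln2, 693 kb from Mettl15, 618 kb from Phf3 and 599 kb from Negr1, which encodes a neuronal adhesion protein. Of these 4, the gap of Mettl15 held 1 more accessible region and the others none.

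The 298 regions had 273 different nearest genes, 1.25% of 21887 protein-coding genes, and 24 genes were nearest to more than 1 region. Mtap, which encodes methylthioadenosine phosphorylase of the methionine salvage pathway, was nearest to 3. They lay 78.5, 93.2 and 115 kb upstream of its 5′ end on chromosome 4, between 89022456 and 89058988, in the gap after the interferon gene Ifne. The region nearest to Mtap overlapped the long non-coding RNA gene Wincr1, and the farthest overlapped Gm34568. The other 23 genes were nearest to 2 regions each.

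Among the 24 was Ptgs2, the gene of the inducible enzyme of prostaglandin synthesis, which had 1 region 56.8 kb upstream of its 5′ end (chromosome 1, 150042841 to 150043613) and 1 next to its 3′ end (150108239 to 150109000). Ier3, an immediate early gene, had both upstream of its 5′ end (chromosome 17), at 1.79 and 26.5 kb. Spry2, a feedback inhibitor of receptor tyrosine kinase signalling, had 1 at 26.0 kb upstream and 1 at 139 kb downstream. Mapk6, which encodes the kinase ERK3, had 1 at 4.47 kb upstream and 1 at 7.72 kb downstream. Map3k9, a mixed-lineage kinase gene, had both downstream, at 16.5 and 23.5 kb, and Pde4b, a cAMP phosphodiesterase gene, both upstream, at 41.6 and 43.2 kb.

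E2f8, an atypical E2F repressor of the cell cycle, had regions 6.45 and 17.6 kb upstream of its 5′ end. Bnc1, which encodes the zinc finger protein basonuclin 1, had them 37.5 and 46.9 kb upstream. Klf14, a Krüppel-like factor gene, had them at 94.3 and 141 kb on the same side, and these were 1521 and 1454 bp wide. Itga4, the integrin alpha 4 gene, had them 87.2 and 133 kb upstream and was also nearest to 2 more accessible regions. Rgmb, which encodes a BMP co-receptor of the repulsive guidance molecule family, had them 237 and 512 kb upstream in a gap of 1174 kb. Further genes with 2 were Actbl2, Clvs1, Fam110c, Gm47655, Gsap, Nmur2, Psg19, Smndc1, Spdye4c, Ttc32 and Uaca. Psg19 belongs to a family of near-identical neighbouring genes, so the placement of reads there is uncertain.

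**Figure D3:**
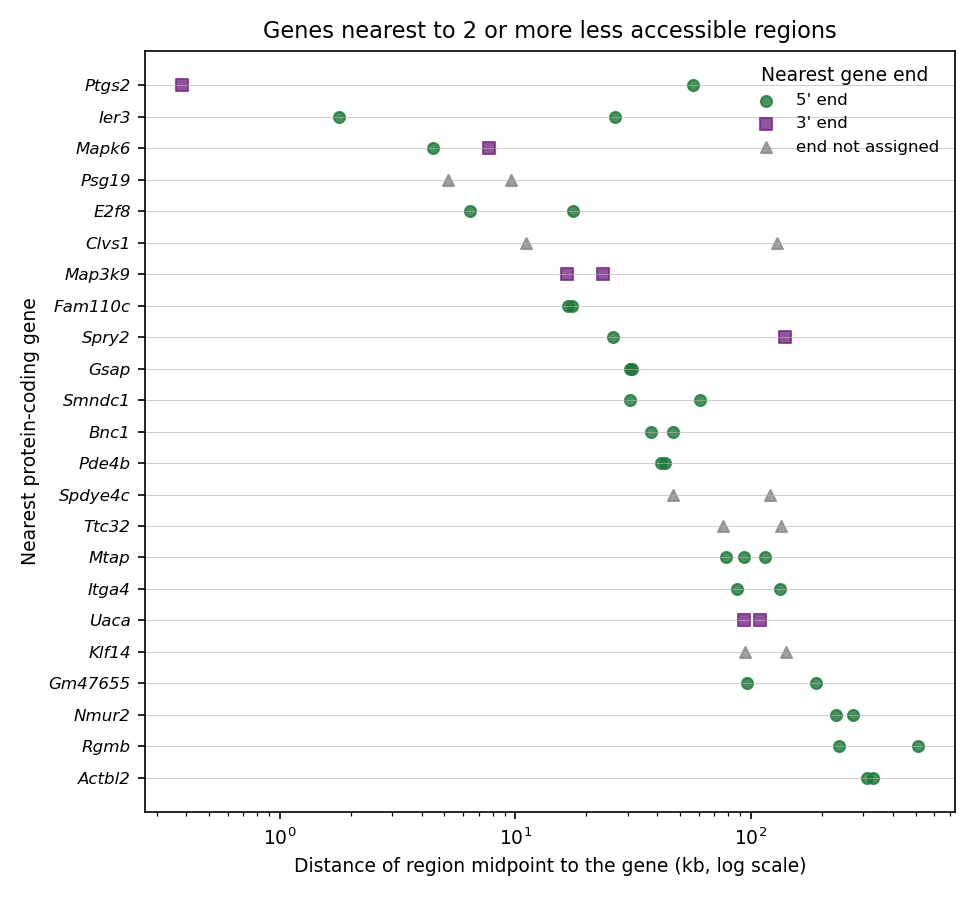
Distance from the midpoint of each less accessible intergenic region to its nearest protein-coding gene (x axis, kb, log scale) for genes nearest to 2 or more such regions (y axis), with circles for regions beyond the 5′ end, squares for regions beyond the 3′ end and triangles where the promoter table gave no strand. Regions of Ptgs2 and Ier3 reach closest among those plotted, at 0.385 and 1.79 kb, and those of Actbl2 and Rgmb farthest.

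The end of the nearest gene could be assigned for 210 regions. It was the 5′ end for 120 (57.1%, exact 95% interval 50.2 to 63.9%), against 646 of 1229 more accessible regions (52.6%, 49.7 to 55.4%), an odds ratio of 1.20 (95% interval 0.89 to 1.64; two-sided Fisher exact test, adjusted p = 0.23). Within 10 kb of a gene it was the 5′ end for 30 of 61 less accessible regions (49.2%) and 73 of 156 more accessible regions (46.8%). Where both flanking genes had a strand, 57 of 179 less accessible regions (31.8%, exact 95% interval 25.1 to 39.2%) lay between genes transcribed away from each other, and 261 of 1019 more accessible regions did (25.6%, 23.0 to 28.4%).

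A larger share of less accessible than of more accessible regions lay in spans of non-coding genes or pseudogenes. Only the less accessible regions were split by type of gene. The midpoint of 68 lay inside the span of a non-coding gene or pseudogene (22.8%, exact 95% interval 18.2 to 28.01%), 67 of them in long non-coding RNA genes and 1 in a pseudogene. Among more accessible regions it was 264 of 1620 (16.3%, 14.5 to 18.2%), an odds ratio of 1.52 (95% interval 1.11 to 2.07; two-sided Fisher exact test, adjusted p = 0.013). These spans take up 14.2% of intergenic base pairs on the chromosomes of the less accessible regions. Beyond 100 kb from a protein-coding gene the shares were 27.7% of 83 and 16.1% of 675, between 10 and 100 kb 26.0% of 131 and 18.1% of 740, and within 10 kb 13.1% of 84 and 10.2% of 205. Besides Wincr1 the genes included Lncpint, a p53-induced RNA, which overlapped the farther region of Klf14, and Mirt1 near Smndc1. These long non-coding RNA genes were chosen after their values were seen.

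MicroRNAs are short RNAs that pair through the seed, bases 2 to 8, with target messenger RNAs. A microRNA gene lay within 10 kb of the edge of 5 less accessible regions (1.68%, exact 95% interval 0.547 to 3.87%) and of 9 more accessible ones (0.556%, 0.254 to 1.05%). The closer region of Klf14 (chromosome 6, 31052573 to 31054093) was 8.57 kb from Mir29a and 8.93 kb from Mir29b-1, whose main products share a seed and are known to act on collagen messenger RNAs. The region near Cdk9 on chromosome 2 was 2.03 kb from Mir2861, a microRNA studied in osteoblast differentiation. Their mature sequences are shown with the seed in capitals, as these loci were chosen after their values were seen.
mmu-miR-29a-3p: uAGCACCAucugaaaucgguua
mmu-miR-29b-3p: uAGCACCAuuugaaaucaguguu
mmu-miR-2861: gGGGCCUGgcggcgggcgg

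The genes of the lists are set beside all 21887 protein-coding genes, of which 1.25% were nearest to one of the 298 less accessible intergenic regions and 4.99% to one of the 1620 more accessible ones. Of 36 genes for ligands, receptors and SMADs of the BMP and TGF-beta pathways, 3 were the nearest gene of a less accessible intergenic region, and all were distant. Tgfbr2, the type II receptor of TGF-beta, was 154 kb away, Inhba, the activin beta A subunit, 185 kb and Gdf6, a BMP family ligand, 256 kb. Bmp7 was the farther flank, at 36.6 kb, of the region next to Spo11. Acvr1 was neither a nearest nor a flanking gene. Of the BMP-SMAD target and feedback genes, 3 of 25 were nearest, at shorter distances. Among them were Msx1, a homeobox gene induced by BMP, 5.81 kb upstream of its 5′ end (chromosome 5, 37829939 to 37830856), and Id2, an inhibitor of bHLH factors, 59.6 kb upstream. Id3 (53.8 kb) and Smad7 (67.2 kb) were farther flanks. Nearest to more accessible intergenic regions were 9 of 36 genes of the first list and 7 of 25 of the second.

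In each list of skeletal lineage genes 1 was nearest. For the osteoblast genes it was 1 of 18 (5.56%, beside 1.25% of all protein-coding genes), Alpl, the alkaline phosphatase of mineralising cells, with a region 17.9 kb upstream. For cartilage genes it was 1 of 16, Matn1, a matrilin of cartilage matrix, at 211 kb, and for tendon and joint genes 1 of 12, Mkx, a homeobox factor of tendon, at 41.3 kb. Osr1 was the farther flank, at 404 and 462 kb, of both regions near Ttc32, and Fmod, a tendon proteoglycan gene, was a farther flank at 17.3 kb. Nearest to more accessible intergenic regions were 5 of 18 osteoblast, 3 of 16 cartilage and 3 of 12 tendon and joint genes.

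Matrix genes were nearest to 1 less accessible region. That was Has2, a hyaluronan synthase gene, at 111 kb, so 1 of 50 genes (2.0%, beside 1.25% of all protein-coding genes), and 13 of 50 (26.0%, beside 4.99%) were nearest to more accessible intergenic regions. The list of more accessible regions is longer, so the counts of the 2 directions here are not a comparison. Of the actin, adhesion and mechanosensing genes it was 2 of 50, Itga4 and Itga1 (470 kb), and 8 of 50 for more accessible regions, and of the YAP, TAZ and TEAD genes 1 of 19, Amotl1, a junctional YAP inhibitor, 13.6 kb upstream, and likewise 1 of 19. Of the WNT genes it was 2 of 40, Rspo2, a secreted WNT enhancer, at 8.07 kb and Dkk2, a WNT antagonist, 63.0 kb upstream, and 9 of 40. Of the Hedgehog, FGF and Notch genes it was Spry2 and Jag1, a Notch ligand, at 297 kb, 2 of 28 and 7 of 28. Of the positional and mesenchymal transcription factors it was Nr2f2 (207 kb) and Meis1 (295 kb), 2 of 38 and 13 of 38. Prrx1, a limb mesenchyme factor, was a farther flank at 102 kb.

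For less accessible regions it was 1 of 17 AP-1 and immediate early genes, Ier3, with Fosb as a farther flank at 22.1 kb, and 1 of 24 inflammatory genes, Ptgs2. None of 17 adipogenic genes was nearest to a less accessible region, and 1 of 12 cell cycle and senescence genes was, Mki67, at 230 kb. For more accessible regions these 4 lists had, in this order, 3 of 17, 5 of 24, 4 of 17 and 3 of 12 genes. Over all 21 lists, 26 of 470 genes (5.53%) were nearest to a less accessible intergenic region, against 1.25% of all protein-coding genes. For more accessible ones it was 98 (20.9%), against 4.99%. The lists were chosen with earlier results of these data known. Counted by region, a list gene was nearest to 31 of 298 less accessible (10.4%) and 188 of 1620 more accessible intergenic regions (11.6%), so the directions differed little. These counts were not tested.

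From the lists of markers of other cell types, 4 genes were nearest to a region. These were the endothelial cadherin gene Cdh5 (39.8 kb), the macrophage genes C1qa (9.19 kb) and Itgam (11.6 kb), and the neural progenitor filament gene Nes (2.08 kb). They stand for 1 of 12 endothelial, 2 of 12 blood and macrophage and 1 of 12 neural and glial markers. For more accessible regions it was 2, 2 and 0 of 12. None of 12 skeletal muscle, 12 epithelial and 10 smooth muscle and pericyte markers was nearest to a less accessible region. Myod1 was a farther flank of one at 34.7 kb. Nearest to a more accessible region was 1 of 12 skeletal muscle markers and none of the other 2 lists. The lists hold no mesothelial markers, and the epithelial list does not hold Krt19. Krt19 (0.273 kb) and Msln (2.41 kb), both expressed in mesothelium, were nearest genes, as was Upk3b (5.15 kb), chosen after its value was seen. Other mesothelial markers were not counted. These genes therefore have no share beside them and do not stand for mesothelial genes as a set. The part of a shift in cell types in these lists was not tested, since expression was not analysed here.

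Less accessible intergenic regions were mostly scattered. They lay in 269 gaps, of which 25 held more than 1, with 54 regions in all. The gaps from Plk2 to Actbl2, from Bcl2l11 to Spdye4c, from Ifne to Mtap and from Gm47655 to Ice1 held 3 each. Another less accessible region lay within 10 kb of 10 regions. These formed 5 pairs, near Fam110c (92 bp apart), Gsap (131 bp), Pde4b (741 bp), Map3k9 (6.35 kb) and Bnc1 (8.76 kb). The median distance to the next less accessible region, inside genes or not, was 768 kb. The corresponding value of 119 kb among more accessible regions comes from a longer list and was not compared.

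Distances to regions of the opposite direction are given as values, since the share expected from position alone was not computed. No less accessible region overlapped a more accessible one. That may follow from how the lists were made, since a tested peak takes 1 direction. Of the less accessible intergenic regions, 5 (1.68%) had a more accessible region within 10 kb. These lay near Fmo6, a flavin monooxygenase gene (4.23 kb apart), Aldoart1 (5.49 kb), Rexo2 (7.25 kb), the mitochondrial isocitrate dehydrogenase gene Idh2 (7.76 kb) and Sec11c (9.61 kb). Within 100 kb it was 72 regions (24.2%, exact 95% interval 19.4 to 29.4%), and 82 (27.5%) shared their gap with a more accessible region. The gap from Cdh11 to Cdh5, both cadherin genes, held 1 less and 7 more accessible regions, and those from Sema3d to Sema3a and from Wdr11 to Fgfr2 held 1 less and 5 more.

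Some nearest genes also had more accessible regions. Of the 273, 48 (17.6%) were nearest to one between genes, beside 4.99% of all protein-coding genes, and 22 (8.06%) had one inside, beside 4.28%. The other 211 (77.3%) had neither, beside 91.6% of all protein-coding genes, and these shares were not tested. Dkk2 was nearest to 3 and had 1 inside, and Sema3a, which encodes a secreted guidance cue, was nearest to 3 and had 3 inside. These genes, and the gaps named above for their more accessible regions, were chosen after their values were seen. Less accessible regions inside the same gene were found for 7 of the 273. In all, 258 less accessible regions lay inside genes. The share of all protein-coding genes holding one was not computed, so the 7 genes are a description only. Arhgef10l, a RhoGEF gene, and Baiap2l1, which encodes a membrane-bending adaptor, had 2 each inside and 1 outside, Gsap had 1 inside and 2 outside, and Amotl1, Negr1, Sugct and Tmem132d had 1 inside and 1 outside. Of these, Arhgef10l, Baiap2l1, Sugct and Tmem132d were chosen after their values were seen.

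Less accessible intergenic regions were 632.5 bp wide at the median (range 213 to 1949 bp), against 577 bp (200 to 1589 bp) for more accessible intergenic regions. The widest adjoined Msln, which encodes the surface protein mesothelin of mesothelial cells, 2.41 kb away on chromosome 17 (25755814 to 25757762). Others among the 5 widest had as nearest gene Idh2 (1606 bp wide, 11.5 kb away), Klf14 (1521 bp, 94.3 kb) and Ptp4a2, a phosphatase gene (1461 bp, 4.91 kb).

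The regions were spread over all autosomes, and none lay on the X chromosome. More accessible intergenic regions were also sparse there, with 15, or 1.2 per 10 Mb between genes against 11.1 over all autosomes. Per 10 Mb between genes there were 2.06 less accessible regions over all autosomes. The values ran from 0.905 on chromosome 16 (5 regions) to 3.33 on chromosome 19 (10 regions). Chromosome 4 had 3.29 and chromosome 7 had 3.22. Of the intergenic differential regions on chromosome 7, 38.4% were less accessible, against 5.62% on chromosome 16. The share within 10 kb of a gene was higher among less than among more accessible regions on 17 of 19 autosomes. The exceptions were chromosome 2, with 16.7% and 18.3%, and chromosome 12, where none of 12 less accessible regions and 9.89% of more accessible regions lay that close. The median distance was lower on 15 of 19 autosomes. Both counts rest on few less accessible regions per autosome, from 5 on chromosome 16 to 31 on chromosome 4.

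**Figure D4:**
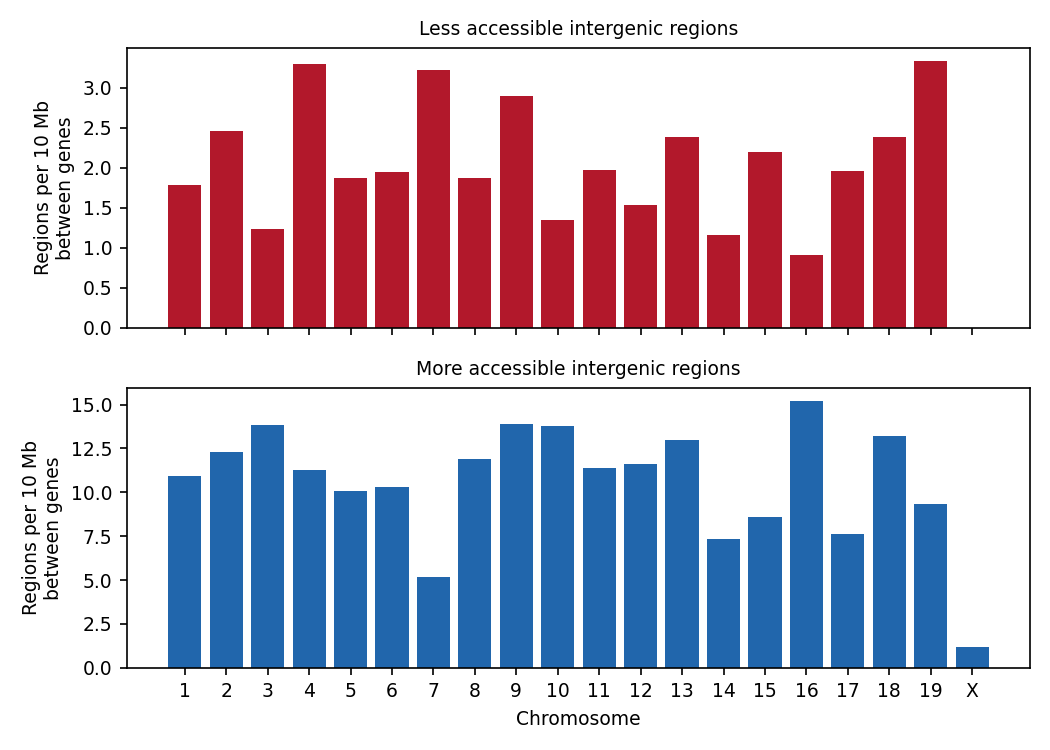
Number of intergenic differential regions per 10 Mb of sequence between protein-coding genes (y axes, bars from 0) on chromosomes 1 to 19 and X (x axis), with less accessible regions above and more accessible regions below. Less accessible regions range from 0.905 on chromosome 16 to 3.33 on chromosome 19, and chromosome 7 is high above and low below.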

How the data were processed

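The deposited files are 2 lists of regions with a chromosome, start and end in base pair positions, without header, read count, signal, fold change or p-value. The direction comes from the name of each list. Per the submitters' processing notes the authors used Bowtie2, Trimmomatic and SAMtools for reads, MACS2 for peaks, and featureCounts and bedtools, with the builds mm10 and GRCm38. Their versions and settings, the cutoff of the lists, the number of peaks tested, the treatment of the transposase offset, and whether peaks came from single or pooled libraries are not stated in any source at hand. What share of all tested peaks the lists hold is therefore unknown.

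Starts were converted to 1-based positions. Each region was placed by its midpoint against spans of 21887 protein-coding genes of the RefSeq table of GRCm38.p6, and its nearest gene, both flanking genes and the gap between them were recorded. Strand and transcription starts came from the RefSeq promoter table, which is not complete, and 88 regions had no strand for their nearest gene. No genome sequence was used beyond the promoter and microRNA tables. Shares carry exact (Clopper-Pearson) 95% intervals, which cover counting error only. Fisher exact tests (two-sided) compared 5 shares between less and more accessible intergenic regions, with Benjamini-Hochberg adjustment over the 5 and a threshold of 0.05. All other values are descriptions. Python 3.11.15, pandas 2.3.3, numpy 2.4.6, scipy 1.17.1 and matplotlib 3.10.9 were used, and distances and the test were checked on simulated positions and counts.

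The regions and the 21 gene lists (472 entries, all matched by symbol) were chosen with earlier results of these data known. The genes named are those nearest to 2 or more of the regions, to the 15 closest and 5 farthest, list genes next to one (up to 6 a list), and genes next to the 5 widest, to regions in a promoter window or within 10 kb of another listed region. Nearest genes outside this rule are marked as such where they are named, and other genes are named only as flanks or gap borders. The counts include 1 gene that is not reported here.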

Additional observations from a re-analysis of the deposited data

How the results depend on the processing

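Under each of the 31 alternatives that were run, the 5 compared shares, the median distance and the number of regions kept their direction and their side of the threshold. With the whole region required to lie outside genes, with neighbours within 10 kb merged, on autosomes alone, without predicted genes and with limits of 5 and 20 kb, the odds ratio of lying near a gene ranged from 2.25 to 3.31 and that of lying far from one, with limits of 50 and 200 kb, from 0.47 to 0.55. The odds ratio of lying in a non-coding gene ranged from 1.51 to 1.60 and the median distance from 34.2 to 34.8 kb. That of a nearest 5′ end ranged from 1.16 to 1.20. Promoter overlap moved more, from 1.84 to 2.75. With at least 50% of the window overlapped, its Fisher exact test gave an adjusted p of 0.06, close to the threshold. There were 296 regions with no base in a gene and 230 outside genes of any type. Leaving out a replicate was not run, and a stricter cutoff of the authors' test was not run, since the lists hold no values per library or region. No paired analysis was possible because the lists carry no values per library. Depth per library is unknown, and the nearest gene need not be the gene an element acts on.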

Other observations

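Some further genes next to less accessible intergenic regions were chosen after their values were seen and are given as values. A region lay 1.40 kb upstream of Pla2g5 and another 4.90 kb upstream of Pla2g2f, both secreted phospholipase A2 genes on chromosome 4, and one 112 kb upstream of Ptger4, a prostaglandin E2 receptor gene, while Pla2g4a, the cytosolic phospholipase A2 gene, was the farther flank, at 81.9 kb, of the distal Ptgs2 region. Regions lay 18.4 kb downstream of Tfpi2, a protease inhibitor gene, and 26.9 kb from F2rl1, which encodes the protease-activated receptor PAR2, in the gap before F2r.

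A region lay 45.7 kb from Rgma, which like Rgmb encodes a BMP co-receptor, and a more accessible region was 29.9 kb from it. The region near Upk3b, a uroplakin gene expressed in mesothelium, lay downstream of it in a gap of 12.3 kb, and Krt80 had one at 18.2 kb, in the gap before Krt7. Regions also lay 2.62 kb downstream of Cflar in the gap before Casp8, 12.0 kb downstream of Bcl2 and 133 kb downstream of Bcl2l11. Further regions lay 1.55 kb from Nfkbiz, an NF-kB cofactor gene, 3.51 kb downstream of Mapk14, the p38 kinase gene, in the gap before Mapk13, and 3.18 kb downstream of Plk2.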
